A study of Mus musculus with 6 samples.

Results

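The interferon-stimulated genes described here are 41 genes whose transcription is switched on by interferon, listed by symbol and matched exactly to the gene names of the count tables. All 41 were found among 25722 gene rows, and all 41 were among the 13842 genes that passed the expression filter. They were measured by RNA-seq in BMSCs, the adherent cells grown from mouse bone marrow, without any interferon added. The question put to them was how high this basal interferon program stood in each library, and whether RA (all-trans retinoic acid, the active form of vitamin A) moved it.

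The cells came from wild-type C57BL/6 mice and were labelled BM-MSCs. All 6 libraries shared the same low-oxygen culture in low-glucose medium with fetal bovine serum and a ROCK inhibitor. There were 3 control libraries, which received the solvent DMSO, and 3 RA libraries, which per the labels received 1 µM ATRA for 48 h. The methods of the study give a lower dose and a shorter time for its sequenced cells, and the labels speak of 2 biological replicates where 3 libraries per group were analysed, so the p-values below measure the spread between these libraries, which may be partly technical.

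Interferons are secreted by cells that sense viral nucleic acid, and bind receptors on the same and on neighbouring cells. Type I interferon acts through IFNAR1 and IFNAR2, the kinases JAK1 and TYK2, and a transcription factor complex holding STAT2 and IRF9 that binds the interferon-stimulated response element (ISRE). Interferon-γ acts through IFNGR1, IFNGR2, JAK1 and JAK2, and leads to transcription from the gamma-activated site (GAS). Macrophages and stromal cells are known to keep a low level of this program running at rest, and its products block viral entry, translation and replication or attack the vacuoles of intracellular microbes.

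The response elements could be seen in the promoters of many of these genes. RefSeq promoter windows on GRCm38.p6, each 250 bases before and 50 bases after a transcription start, were matched for 31 of the 41 genes (36 windows, since some genes have more than 1 start), and 10 genes were not matched. The ISRE was searched as GAAANNGAAA and the GAS as TTCNNNGAA, where N is any base, on both strands. An ISRE match stood in 21 of the 36 windows (58.3%) against 3.44% of all 32851 windows, and a GAS match in 10 of the 36 (27.8%) against 8.3% of all windows. The 2 motifs overlapped each other only in Bst2. A match is a description of letters and was not tested as a binding site. The stretches below were chosen to show the element in 1 or more genes of most of the role groups. Each is 30 bases, upstream of the RefSeq start, 5′ to 3′ on the strand of the gene, with the matched bases in capitals (TTTC is GAAA read on the other strand).
Isg15 (chr4:156200871-156200900, minus strand, ISRE): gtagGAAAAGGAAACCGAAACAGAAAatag
Ifit1 (chr19:34640775-34640804, plus strand, ISRE): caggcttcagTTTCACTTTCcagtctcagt
Oas3 (chr5:120777715-120777744, minus strand, ISRE): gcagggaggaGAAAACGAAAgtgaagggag
Rsad2 (chr12:26456553-26456582, minus strand, ISRE): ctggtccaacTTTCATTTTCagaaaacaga
Bst2 (chr8:71537580-71537609, minus strand, ISRE): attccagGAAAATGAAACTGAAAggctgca
Gbp2 (chr3:142620594-142620623, plus strand, ISRE): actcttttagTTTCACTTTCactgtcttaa
Gbp3 (chr3:142559992-142560021, plus strand, ISRE): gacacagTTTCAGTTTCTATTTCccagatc
Irgm1 (chr11:48871428-48871457, minus strand, ISRE): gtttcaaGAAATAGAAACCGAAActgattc
Igtp (chr11:58199512-58199541, plus strand, ISRE): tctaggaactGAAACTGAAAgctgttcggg
Irf1 (chr11:53769914-53769943, plus strand, GAS): acagcctgatTTCCCCGAAatgatgaggcc
Isg15 carried 3 overlapping ISRE matches within this stretch, and Bst2, Gbp3 and Irgm1 carried 2 each. The stretches of Gbp2 and Irgm1 lie partly or wholly inside the gene as GENCODE draws it, which starts some transcripts further upstream. Irf1 had a GAS match and no ISRE match in either of its windows.

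Of the series as a whole, the libraries held between 14737636 and 18511905 counts, so that 3 counts, the floor used here, corresponded to 0.160 to 0.210 CPM (counts made comparable between libraries with TMM factors). Expression of 16 macrophage markers, such as Adgre1 and Csf1r, summed to 21590 to 24766 CPM in every library, while 12 mesenchymal stromal markers summed to 1683 to 4062 CPM, of which Col1a1 (414 to 1648 CPM), Cxcl12 (368 to 578 CPM) and Pdgfrb (60.3 to 139.9 CPM) were expressed in every library, whereas Thy1 and Nt5e stayed at or below 0.490 and 1.12 CPM. The libraries labelled BM-MSCs thus held high macrophage markers beside stromal ones, with Thy1 and Nt5e too low to pass the expression filter. In these bulk samples fewer cells of a type and less RNA per cell cannot be told apart. RA libraries were told from the controls by Cyp26b1, the retinoid-degrading enzyme that RA induces, at 4.68 to 5.96 CPM in control and 87.1 to 124 CPM in RA. The leading principal component of the 1000 most variable genes other than the interferon-stimulated genes (57.2% of their variance) did not follow treatment. It placed control 2, RA 1 and RA 2 on one side, called library set 1, and control 1, control 3 and RA 3 on the other, called set 2. No label explains these sets.

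All 41 interferon-stimulated genes were detected in all 6 libraries without added interferon. The 41 genes together took 0.294%, 0.148% and 0.300% of the counts in controls 1 to 3 and 0.173%, 0.215% and 0.256% in RA 1 to 3. The 3 lowest shares were those of the set 1 libraries, and the control and RA ranges overlapped. Per length, the median of the 41 genes was 12.8 RPKM (CPM divided by the gene's exon length in kilobases) against 5.04 RPKM for all genes tested. Bst2, which encodes tetherin, a membrane protein that holds budding virions on the cell surface, had the highest level at 219 RPKM averaged over the libraries, followed by Isg15 at 52.4, Oas1a at 38.5, Rtp4 at 36.4 and Ifit3 at 32.7 RPKM. Gbp4 was the lowest at 0.263 RPKM and Mx2 the next at 1.05 RPKM. Levels of Ifit3 and Ifit3b, which share 51.2% and 45% of their 50-base words, and of Oas1a, which shares 57.6% with Oas1g and Oas1b, depend on how shared reads were counted.

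The level differed more between libraries of 1 group than between the groups. The mean log2 CPM of the 41 genes was 5.18 ± 0.60 in control and 5.07 ± 0.28 in RA (SD, n = 3), a difference of -0.11. Control 2 gave the lowest value of all 6 libraries for 32 of the 41 genes, and the highest value lay in control 1 for 15 genes and in control 3 for 18. Among the 3 controls alone, control 2 was lowest for 37 of the 41 genes, against 43.1% of all genes tested. The range among the 3 controls was wider than the difference between the group means for 38 of the 41 genes, against 79.2% of all genes tested. The SD of log2 CPM was larger in control than in RA for 38 of the 41 genes, against 42.8% of all genes tested.

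**Figure D1:**
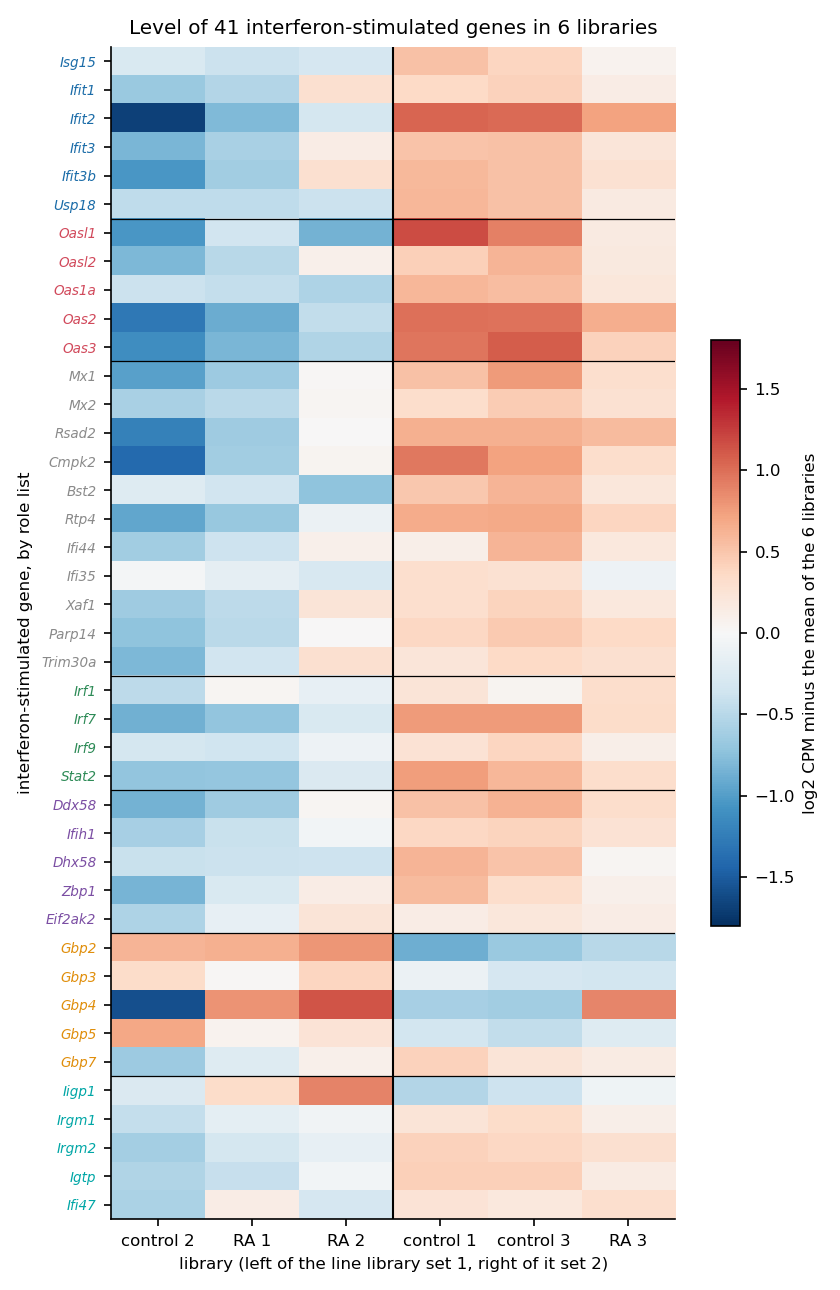
Heat map of the 41 interferon-stimulated genes (rows, grouped by role, with the symbol colored by role) in the 6 libraries (columns, ordered by library set), where color gives log2 CPM minus the mean of the 6 libraries. Control 2 was lowest of all 6 libraries for 32 genes, and lowest of the 3 controls for 37 (43.1% of all genes tested). Gbp2, Gbp3 and Gbp5 had higher values in set 1 than in set 2.

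Against this spread, no interferon-stimulated gene was called higher or lower after RA. With edgeR's quasi-likelihood test and treatment alone in the model, 0 of 41 genes reached an adjusted p under 0.05 (Benjamini-Hochberg, over all genes tested) with at least a 1.5-fold change, where 0.0361% of all genes were called higher and 0.00722% lower. At an unadjusted p under 0.05 there were 2 genes higher, Gbp4 and Iigp1, and 1 lower, Ifi35, which is 3 of 41 genes where 5.25% of all genes tested were under that threshold. These were also the only genes whose RA and control libraries did not overlap: 2 of 41 lay wholly above the controls against 5.71% of all genes, and 1 of 41 wholly below against 6.87%. The log2 fold change was below 0 for 33 genes and above 0 for 8, with a median of -0.19 (all genes tested, -0.018) and a range from -0.90 for Oasl1 to 1.82 for Gbp4. The median was -0.45 without control 2 and -0.36 without RA 3, and between -0.051 and -0.027 without control 1, control 3 or RA 1.

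The sign of that median depended on the library sets. With library set as a covariate the median was 0.13 (all genes tested, -0.0041), and 28 genes were above 0 and 13 below. The sign differed between the 2 models for 22 of the 41 genes, against 18.4% of all genes tested. Within set 1, where 1 control stood against 2 RA libraries, the median was 0.48, and within set 2, where 2 controls stood against 1 RA library, it was -0.25. The RA library or libraries were higher than the control in set 1 and lower in set 2 for 30 of the 41 genes. The share of all genes with that pattern was not computed. For 5 of the 41 genes RA was higher in both sets, against 30.9% of all genes tested. It was lower in both for 5, against 35%. In that model 1 of 41 genes, Gbp4, was called higher, against 0.744% of all genes, and 0 were called lower, against 0.795%. DESeq2 without the covariate also called 1 higher, again Gbp4, against 0.708% of all genes, and 0 lower, against 0.275%.

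**Figure D2:**
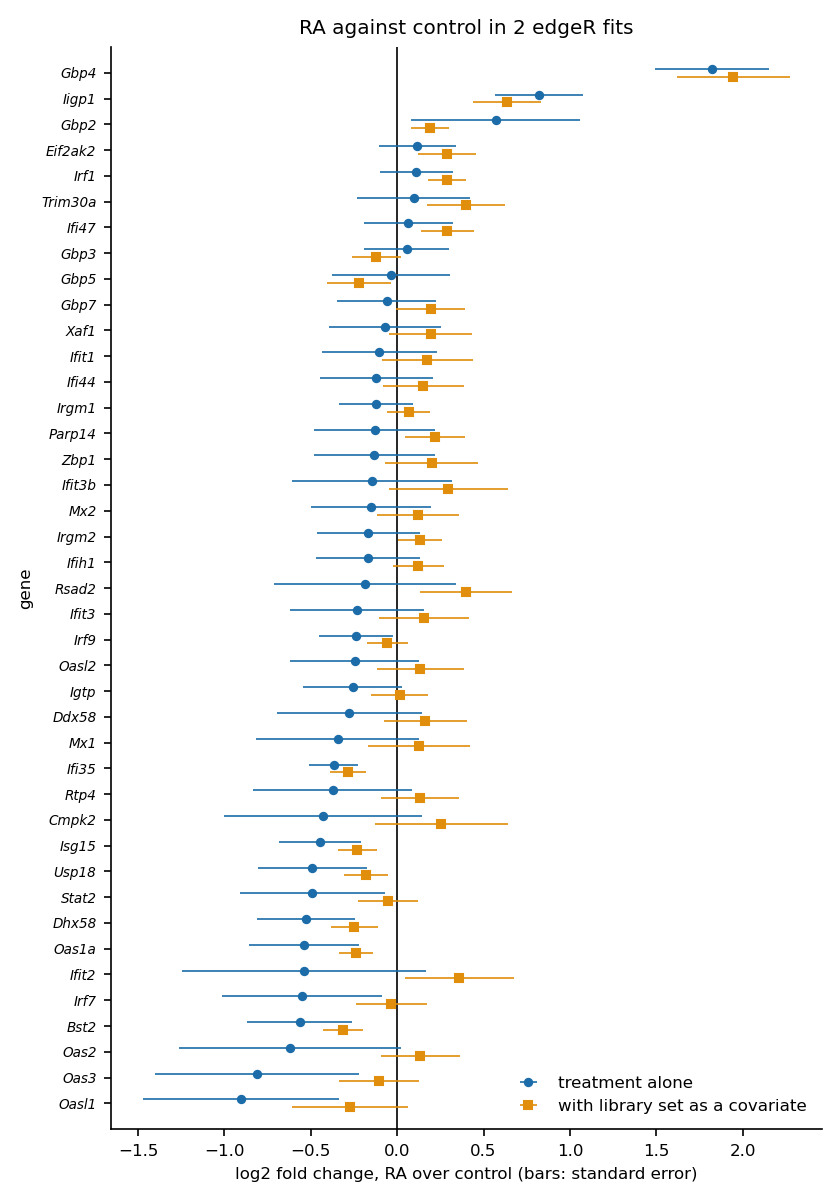
Log2 fold change of RA over control for each of the 41 genes, with standard error bars, in the edgeR model with treatment alone (blue circles) and with library set as a covariate (orange squares). Values run from -0.90 (Oasl1) to 1.82 (Gbp4) with treatment alone, and the median moves from -0.19 to 0.13 with the covariate.

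Most interferon-stimulated genes were lower in library set 1, whichever the treatment. Set 1 minus set 2 had a median of -0.99 on the log2 scale in the control libraries and of -0.42 in the RA libraries, while the medians over all genes tested were 0.0036 and -0.013. In both treatments 36 of the 41 genes were lower in set 1, against 40% of all genes tested. All 6 genes of the IFIT and ISG15 group, all 5 OAS genes, all 11 of the Mx and other antiviral effector group, all 4 transcription factors and all 5 sensors were among these 36. The 4 genes higher in set 1 in both treatments were Gbp2, Gbp3, Gbp5 and Iigp1, where 39.3% of all genes tested were higher in both. The sets were defined by other genes of the same libraries, and these counts are a description with no test.

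Many markers of cell types also differed between the sets, though the summed levels of the stromal and macrophage lists overlapped. Mesenchymal stromal markers summed to 4062, 3177 and 2166 CPM in control 2, RA 1 and RA 2, and to 2222, 2368 and 1683 CPM in control 1, control 3 and RA 3. Of the 10 that were tested, 8 were higher in set 1 in both treatments, against 39.3% of all genes tested. Macrophage markers summed to 22869, 21590 and 22703 CPM in set 1 and 22626, 24766 and 23399 CPM in set 2. In both treatments 12 of 16 were lower in set 1, against 40% of all genes tested. Endothelial markers summed to 6.81, 9.89 and 11.4 CPM in set 1 and 16.4, 16.0 and 17.2 CPM in set 2, of which Pecam1, which leukocytes also express, stood at 3.24, 4.72 and 5.90 CPM against 12.5, 12.2 and 13.6 CPM, while Cdh5 stayed between 1.84 and 3.11 CPM in all libraries. Of the B cell markers only Cd79b exceeded 2 counts in any library, at 0.372, 0.278 and 1.14 CPM in set 1 and 4.97, 2.96 and 5.39 CPM in set 2. Plasmacytoid dendritic cell markers summed to 0.904 to 3.002 CPM, neutrophil markers to 3.03 to 4.41 CPM and T and NK cell markers to 0.0556 to 0.851 CPM. Their part in the level of the interferon-stimulated genes was not tested.

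**Figure D3:**
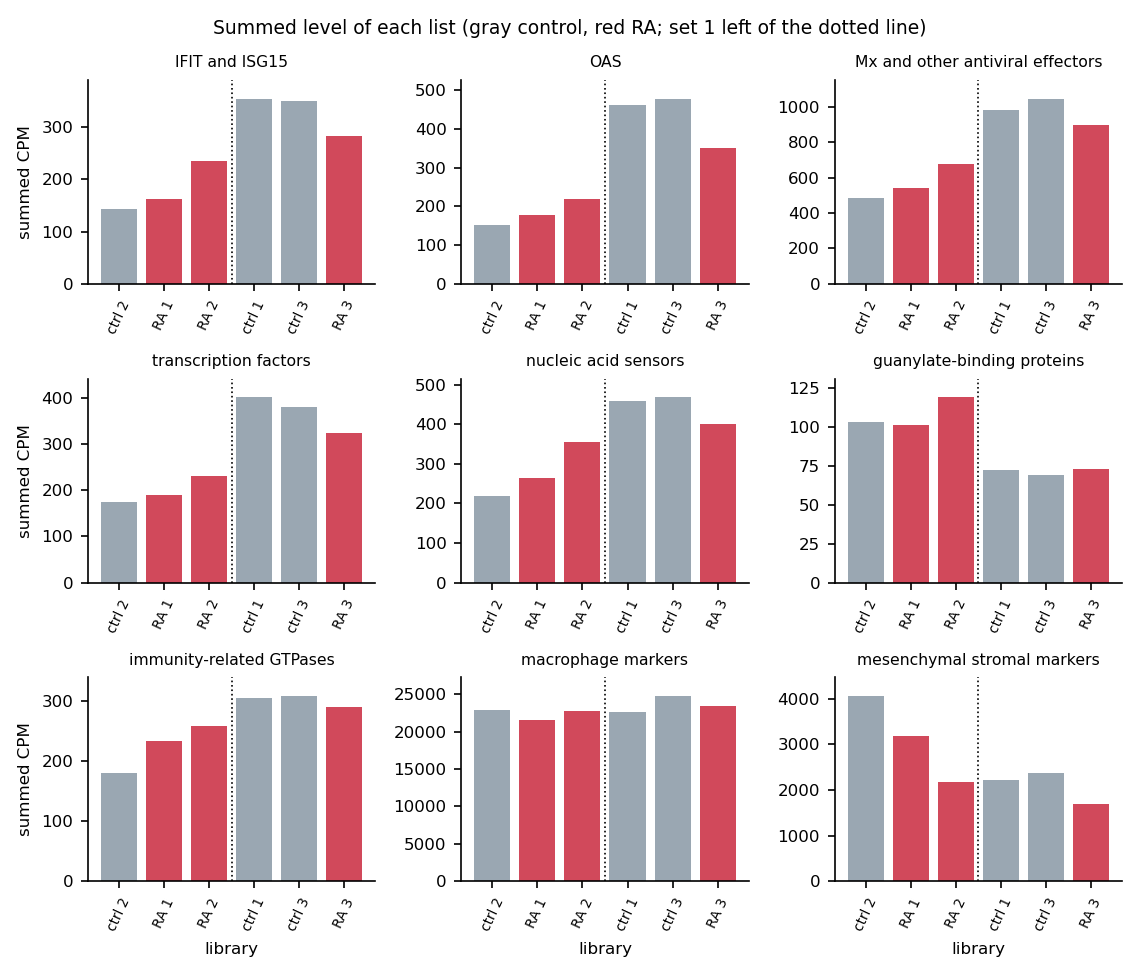
Summed CPM of the 7 role groups of interferon-stimulated genes and of the macrophage and mesenchymal stromal marker lists in each library (gray bars control, red bars RA, each axis starting at 0), with set 1 left of the dotted line. Every role group but the guanylate-binding proteins has its 3 lowest bars in set 1, while the guanylate-binding proteins sum to 101 to 119 CPM in set 1 and 69.2 to 72.9 CPM in set 2.

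**Figure D4:**
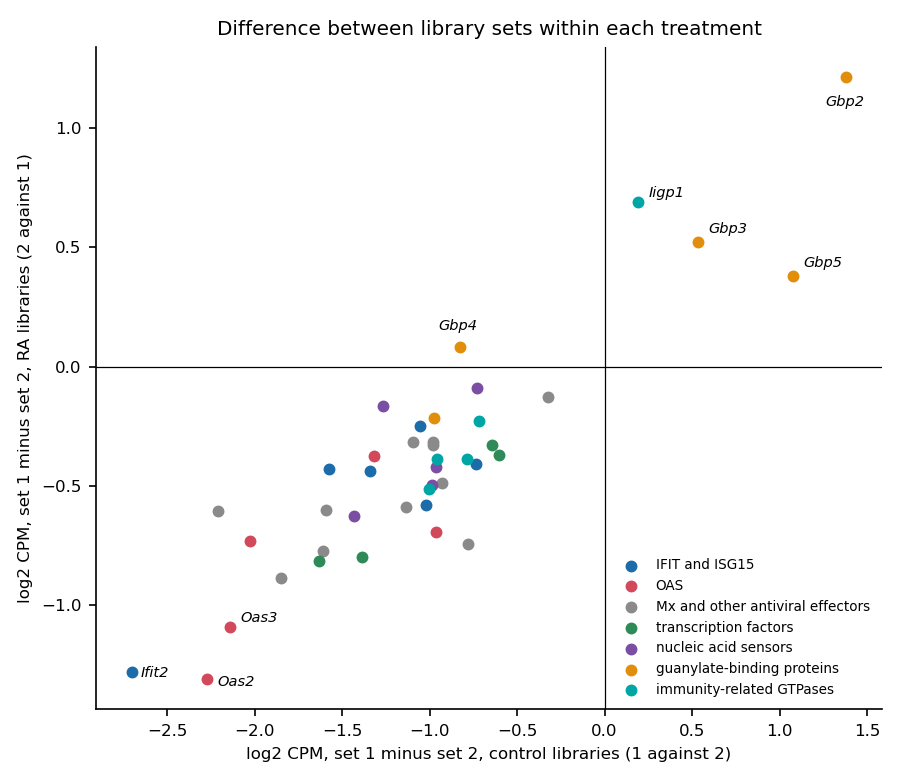
Log2 CPM of set 1 minus set 2 for each of the 41 genes, in the control libraries on the horizontal axis (1 library against 2) and in the RA libraries on the vertical axis (2 against 1), with color for the role group. In the lower left are 36 genes, and in the upper right Gbp2, Gbp3, Gbp5 and Iigp1.

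Of the IFIT and ISG15 group, 0 of 6 genes were called, with log2 fold changes from -0.54 to -0.10 and a median of -0.34. Isg15, a ubiquitin-like protein that is secreted and attached to other proteins, stood at 55.0, 31.6 and 50.4 CPM in controls 1 to 3 and 29.2, 31.1 and 40.0 CPM in RA 1 to 3. Control 2 lay among the RA libraries, and the groups overlapped. The log2 fold change was -0.45 ± 0.24 (SE, adjusted p = 0.795), or -0.23 with the covariate. Ifit2, which binds viral RNA and limits its translation, had the widest range of the 41 genes, 6.60-fold between its highest and lowest library. It stood at 76.6, 11.6 and 75.5 CPM in control and 21.4, 29.7 and 61.4 CPM in RA. Controls 1 and 3 were the highest and control 2 the lowest, with all RA libraries between them. This gave a log2 fold change of -0.54 ± 0.71 (adjusted p = 0.85), and 0.36 with library set as a covariate. Ifit1 and Ifit3, from the same gene cluster, ranged from 39.7 to 84.1 CPM and from 30.4 to 77.8 CPM, each lowest in control 2 and highest in control 3. Usp18, the protease that removes ISG15 from proteins and dampens the type I receptor, ranged from 24.6 to 51.3 CPM, and the lower copy Ifit3b from 4.47 to 13.8 CPM.

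The OAS genes had the lowest median log2 fold change of the 7 role groups, -0.62, and 0 of 5 were called. OAS enzymes sense double-stranded RNA and make the messenger that activates RNase L, and OASL proteins are relatives of the family. Oas2 stood at 138, 28.4 and 137 CPM in control and 37.6, 51.2 and 109 CPM in RA, a log2 fold change of -0.62 ± 0.64 (adjusted p = 0.826). The 3 high values were the 3 libraries of set 2, and with the covariate the value was 0.13. Oas3 was divided in the same way, at 104, 24.5 and 114 CPM in control and 30.1, 36.7 and 71.0 CPM in RA, and its log2 fold change of -0.81 ± 0.59 (adjusted p = 0.799) became -0.11 with the covariate. Oasl1, a negative regulator of Irf7 translation, stood at 10.6, 2.29 and 8.80 CPM in control and 3.72, 2.60 and 5.25 CPM in RA. All its RA libraries lay below controls 1 and 3 and above control 2, and its log2 fold change was -0.90 ± 0.57 (adjusted p = 0.795), or -0.27 with the covariate. Oas1a ranged from 46.8 to 104 CPM and was one of 5 genes below control within both sets, with a log2 fold change of -0.54 ± 0.32 (adjusted p = 0.795) that was -0.24 with the covariate. Oasl2 ranged from 44.4 to 118 CPM.

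Among the 11 Mx and other antiviral effector genes, 0 were called, 10 had a log2 fold change below 0, and the median was -0.19. Parp14, an ADP-ribosyltransferase, stood at 326, 153 and 348 CPM in control and 180.0, 254 and 322 CPM in RA. The groups overlapped widely, and the log2 fold change was -0.13 ± 0.35 (adjusted p = 0.93), or 0.22 with the covariate. Bst2 stood at 263, 159 and 286 CPM in control and 148, 113 and 217 CPM in RA. Its RA libraries were below the control libraries of their own set, yet RA 3 lay above control 2, and the log2 fold change was -0.57 ± 0.31 (adjusted p = 0.795), or -0.31 with the covariate. Ifi35, which encodes an interferon-induced leucine zipper protein, stood at 42.5, 33.5 and 41.5 CPM in control and 30.9, 28.0 and 32.1 CPM in RA. It was the only gene of the 41 with every RA library below every control, by a small margin between control 2 and RA 3. Its log2 fold change was -0.37 ± 0.14 (unadjusted p = 0.0358, adjusted p = 0.795), or -0.29 with the covariate, and 10.4% of its 50-base words are shared with a gene on the opposite strand. Rsad2, the antiviral enzyme viperin, stood at 31.4, 8.62 and 31.4 CPM in control and 12.8, 20.1 and 29.8 CPM in RA, with a log2 fold change of -0.19 ± 0.53 (adjusted p = 0.934), or 0.40 with the covariate. Its neighbour Cmpk2, a mitochondrial nucleotide kinase, had a 5.09-fold range from 5.37 to 27.3 CPM. Both genes were lowest in control 2. The Mx proteins are dynamin-like GTPases that trap viral nucleocapsids, and C57BL/6 mice are known to carry a defective Mx1. Mx1 transcript ranged from 3.51 to 11.8 CPM and Mx2, annotated as a polymorphic pseudogene, from 2.45 to 5.02 CPM. Rtp4 ranged from 37.0 to 113 CPM, Trim30a, a negative regulator of Toll-like receptor signaling, from 63.6 to 142 CPM, Ifi44 from 10.2 to 23.9 CPM and Xaf1, an inhibitor of XIAP, from 11.0 to 22.7 CPM. All 4 were lowest in control 2 and highest in control 3.

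The transcription factors that carry the response differed from each other in how far they ranged, and 0 of 4 were called. Stat2 stood at 205, 74.6 and 185 CPM in control and 75.3, 102 and 153 CPM in RA, a log2 fold change of -0.49 ± 0.42 (adjusted p = 0.803) that was -0.05 with the covariate. Irf7, the factor that amplifies interferon-α production, stood at 81.3, 26.2 and 81.3 CPM in control and 29.4, 39.5 and 60.0 CPM in RA, a log2 fold change of -0.55 ± 0.46 (adjusted p = 0.803), or -0.03 with the covariate. Both genes had their 3 highest values in the 3 libraries of set 2. Irf1, an early target of interferon-γ through its GAS, was flatter, at 50.6, 31.3 and 44.8 CPM in control and 44.1, 39.0 and 53.7 CPM in RA. Its highest library was RA 3, and its log2 fold change was 0.11 ± 0.21 (adjusted p = 0.902). It was one of the 5 genes above control within both sets, with 0.29 under the covariate (adjusted p = 0.294). Irf9 ranged from 41.6 to 69.3 CPM.

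Of the 5 nucleic acid sensors 0 were called, and the median log2 fold change was -0.17. Ddx58, which encodes the RNA sensor RIG-I, stood at 167, 64.2 and 179.6 CPM in control and 74.3, 119 and 145 CPM in RA, with a log2 fold change of -0.28 ± 0.42 (adjusted p = 0.868), or 0.16 with the covariate. The second RNA sensor of the family, Ifih1 (MDA5), ranged from 45.0 to 90.1 CPM in the same order of libraries. Dhx58, the regulator LGP2, stood at 62.5, 31.0 and 58.5 CPM in control and 31.5, 31.6 and 42.2 CPM in RA, a log2 fold change of -0.53 ± 0.28 (adjusted p = 0.795), or -0.25 with the covariate. Eif2ak2, the kinase PKR that halts translation when bound by double-stranded RNA, stood at 109, 67.1 and 114 CPM in control and 89.5, 116 and 108 CPM in RA. Control 2 stood apart below the other 5 libraries, and the log2 fold change was 0.12 ± 0.22 (adjusted p = 0.901), or 0.29 with the covariate. Zbp1, a sensor of Z-form nucleic acid, ranged from 11.8 to 31.0 CPM.

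The guanylate-binding proteins, large GTPases that coat pathogen vacuoles and are strong targets of interferon-γ, did not share one pattern. Gbp4 stood at 1.05, 0.532 and 1.03 CPM in control and 2.78, 3.49 and 2.93 CPM in RA, from 15, 10 and 15 counts against 50, 55 and 43. Every RA library lay above every control, by more than 2-fold, in both library sets. The log2 fold change of Gbp4 was 1.82 ± 0.33 (3.54-fold, unadjusted p = 0.00103, adjusted p = 0.282), which missed the threshold. With library set as a covariate it was 1.95 ± 0.33 (adjusted p = 0.0332). The sets were read from these same libraries but fitted as known, so that adjusted p may be too small. DESeq2 without the covariate gave an adjusted p of 0.00383. Gbp4 was the lowest of the 41 genes per length, and 7.78% of its 50-base words are shared with neighbouring members of its family.

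Gbp2 went with the library set rather than with treatment, and in the opposite direction to the IFIT and OAS genes. It stood at 17.9, 50.3 and 20.7 CPM in control and 51.5, 57.3 and 23.3 CPM in RA. The 3 high values were those of control 2, RA 1 and RA 2, the set in which Ifit2 and Oas2 had their low values. The value for RA against control was 0.57 ± 0.49 on the log2 scale (adjusted p = 0.803), or 0.19 with the covariate. Gbp5 stood at 6.86, 14.0 and 6.33 CPM in control and 9.06, 10.2 and 7.37 CPM in RA, highest in control 2, with a log2 fold change of -0.04 ± 0.34 (adjusted p = 0.983), or -0.22 with the covariate. Gbp3 ranged from 15.5 to 25.2 CPM with its 3 highest values in set 1, while Gbp7, next to it on chromosome 3, ranged from 13.7 to 28.9 CPM with its lowest value in control 2. As a group 0 of 5 were called, 3 had a log2 fold change above 0, and the median was 0.055.

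Immunity-related GTPases, a second family of vacuole-attacking enzymes and their regulators, had 0 of 5 genes called and a median log2 fold change of -0.12. Iigp1, an effector of the family, stood at 18.9, 22.8 and 21.1 CPM in control and 34.4, 50.7 and 25.8 CPM in RA. All RA libraries lay above all controls, though RA 3 was close to control 2. Its log2 fold change was 0.82 ± 0.25 (1.76-fold, unadjusted p = 0.0156, adjusted p = 0.775), or 0.64 with the covariate (adjusted p = 0.209). The regulator Irgm2 stood at 101, 49.7 and 98.5 CPM in control and 61.0, 68.7 and 92.3 CPM in RA, a log2 fold change of -0.17 ± 0.30 (adjusted p = 0.894), or 0.13 with the covariate, and had the order of libraries seen for Stat2. Irgm1 ranged from 53.6 to 91.3 CPM, Igtp (Irgm3) from 24.6 to 48.1 CPM and Ifi47 from 28.9 to 52.9 CPM, each lowest in control 2.

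**Figure D5:**
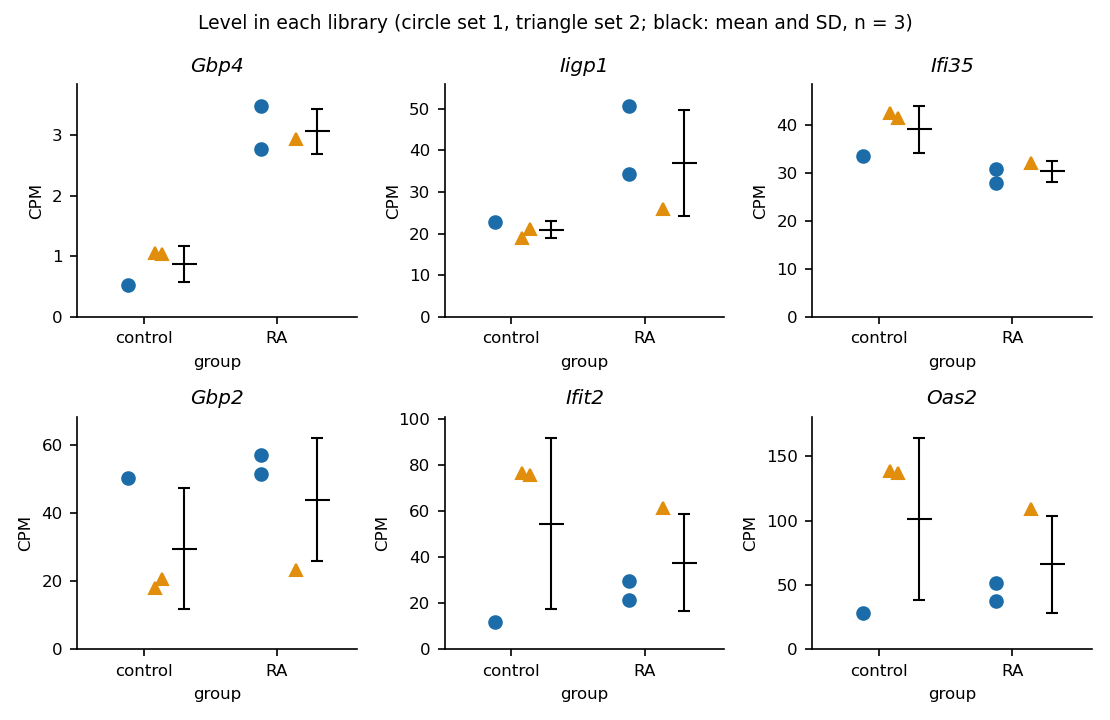
CPM in each library for Gbp4, Iigp1, Ifi35, Gbp2, Ifit2 and Oas2 (circles set 1, triangles set 2; black marks, mean and SD of the 3 libraries), with each axis starting at 0. The groups do not overlap for Gbp4, Iigp1 and Ifi35, whereas Gbp2 is high and Ifit2 and Oas2 are low in set 1 in both treatments.

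The genes that make, receive and restrain interferon were listed separately, and 0 of the 34 tested were called, with 11 above 0, 23 below 0 and a median log2 fold change of -0.11. With library set as a covariate 21 were above 0 and 13 below, with a median of 0.043. Of 17 interferon genes, 15 had no row and were not analysed here. Ifnz had at most 6 counts and Ifng at most 1 count in a library, both under the filter. The receptor chains for type I interferon and interferon-γ were present in every library. Ifnar1 stood between 143 and 158 CPM, Ifnar2 between 82.0 and 95.6 CPM, Ifngr1 between 94.2 and 139 CPM and Ifngr2 between 142 and 199.9 CPM. Ifnlr1, the receptor chain for interferon-λ, stayed at or below 0.317 CPM, while its partner Il10rb ranged from 107 to 199.6 CPM. The kinases Jak1, Jak2 and Tyk2 ranged from 249 to 320.1 CPM, from 58.3 to 104 CPM and from 76.8 to 152 CPM. The type I receptor genes had narrow ranges between libraries.

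Among inducers of interferon, 3 genes were above control and 1 below at an unadjusted p under 0.05, out of 13 tested, and none after adjustment. The share of all genes tested under that threshold was 5.25%. Ikbke, the kinase IKKε that activates IRF3 and IRF7, stood at 349, 319.7 and 339.8 CPM in control and 428, 452 and 459 CPM in RA, with all RA libraries above all controls. Its log2 fold change was 0.41 ± 0.11 (adjusted p = 0.602), or 0.44 with the covariate (adjusted p = 0.0324, under the fold threshold), and DESeq2 gave an adjusted p of 0.00706. Tlr4, the receptor for bacterial lipopolysaccharide, stood at 42.4, 48.2 and 54.3 CPM in control and 69.3, 67.7 and 63.8 CPM in RA, and Irf5 at 199.1, 180.0 and 182 CPM and 207, 229 and 250.4 CPM. Both had groups that did not overlap, with log2 fold changes of 0.47 ± 0.13 and 0.29 ± 0.12 (adjusted p = 0.602 and 0.795). With the covariate these were 0.45 and 0.33 (adjusted p = 0.122 and 0.123). Irf3 was on the other side, at 55.5, 46.2 and 53.8 CPM in control and 40.2, 38.9 and 44.6 CPM in RA, without overlap. Its log2 fold change was -0.33 ± 0.12 (adjusted p = 0.795), or -0.26 with the covariate (adjusted p = 0.231). Of the 34 upstream genes tested, 5 lay wholly above the controls, Ifnar2 and Jak1 among them, against 5.71% of all genes tested. Only 1 lay wholly below, against 6.87%.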

How the data were processed

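RNA-seq of 6 mouse BMSC cultures (3 control, 3 RA) was taken up from the raw counts per gene that the authors deposited, 1 table per library, not normalized. The submitters' processing notes name Bowtie2 2.2.3 and mm10. The counting program, annotation and strand setting are not given in the sources used here, and the library kit does not mark strand, so overlapping genes on opposite strands cannot be told apart.

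Groups and replicate numbers came from the labels. Counts were analysed in R 4.3.3 with edgeR 4.0.16 (TMM scaling, filterByExpr, quasi-likelihood F test, treatment alone, all 6 libraries). A gene counted as called when its p, adjusted by Benjamini-Hochberg, was under 0.05 and the change at least 1.5-fold. CPM are TMM-scaled, log2 CPM used a prior count of 2, and RPKM used the length of all exons of a gene in GENCODE M21 (GRCm38), in which all 25722 identifiers were found. Library sets were read from the first principal component, without the interferon-stimulated genes, and the values within and between sets are differences of mean log2 CPM. Since the sets came from these same libraries, adjusted p-values from fits with library set may be too small. Promoter windows came from RefSeq. The members and lists were chosen with earlier results of these data known. All 41 members could be named by role. Upstream genes were named as ligand, receptor, JAK or STAT, or at an unadjusted p under 0.05. Tlr9, Tlr7 and Trex1 were named outside this rule, after their values were seen. One listed upstream gene is not reported here. The fit was run on simulated counts, as a check that it recovers changed genes when the spread is set small. This check does not show how many changed genes the fit would recover at the spread between these libraries. Counting error is largest for Gbp4, the member with the fewest counts, and the floor of 3 counts covers counting error only. As alternatives, each library was left out in turn, and the fit was repeated with the replicate block, library set as a covariate, DESeq2 1.42.0, the likelihood ratio test, other scalings (library size, RLE, upper quartile), no filter, at least 10 counts in every library, and no fold threshold. DESeq2 with library set was chosen after seeing the data.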

Additional observations from a re-analysis of the deposited data

How the results depend on the processing

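The count of interferon-stimulated genes called higher was 0 and became 1 (Gbp4) with library set as a covariate, with DESeq2, with the likelihood ratio test and with DESeq2 plus library set (chosen after seeing the data), and the count called lower was 0 throughout. In the same order, these fits called 103, 98, 93 and 176 of all 13842 genes tested higher, and 110, 38, 41 and 206 lower. Leaving out each library in turn gave 0 of the 41 genes in either direction, but these fits called at most 6 of all genes tested higher and 0 lower. With so few calls over all genes, this does not tell how stable the 41 genes are. The median log2 fold change ranged from -0.45 (without control 2) to -0.027 (without RA 1) over the left-out libraries, and was above 0 with library set as a covariate (0.13) and with DESeq2 plus library set (0.15). Replicate numbers did not pair the samples (correlations of deviations -0.51, 0.34 and 0.57), and the replicate block gave a median of -0.13 and 0 calls. With the covariate the direction changed for 22 of the 41 genes. Among the genes whose fold change the report prints, these were Ifit2 (0.36), Parp14 (0.22), Rsad2 (0.40), Oas2 (0.13), Ddx58 (0.16) and Irgm2 (0.13), which also changed with DESeq2 plus library set (0.41, 0.22, 0.42, 0.15, 0.17 and 0.14). With the replicate block Gbp5 changed direction (0.046). Over the left-out libraries the log2 fold change took both signs for 18 of the 41 genes, among the printed ones Eif2ak2 (-0.073 to 0.25), Gbp5 (-0.24 to 0.44), Irf1 (-0.053 to 0.26), Parp14 (-0.40 to 0.086) and Rsad2 (-0.57 to 0.094), and it kept its sign for Gbp4 (1.57 to 1.98), Iigp1 (0.52 to 1.02) and Ifi35 (-0.45 to -0.31). The cause was not tested. Depth limits Gbp4 most, whose control libraries held 10 to 15 counts.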

Other observations

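Of the 34 upstream genes tested, 24 were lower in set 1 in both treatments, against 40% of all genes tested. Tlr9, Tlr7 and Trex1 are given as examples, chosen after their values were seen. Tlr9, the endosomal receptor for unmethylated DNA, stood at 38.5, 6.75 and 46.4 CPM in controls 1 to 3 and 9.23, 15.8 and 53.0 CPM in RA 1 to 3. Tlr7, its counterpart for single-stranded RNA, stood at 106, 37.0 and 126 CPM in control and 48.7, 61.8 and 142 CPM in RA. Trex1, the exonuclease that clears cytosolic DNA, stood at 67.1, 19.5 and 58.2 CPM in control and 21.3, 32.1 and 48.6 CPM in RA. For these 3 the lowest library was control 2, and each set 1 library lay below each set 2 library.

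Controls 1 and 3 were close to each other, differing by under 0.25 on the log2 scale for 38 of the 41 interferon-stimulated genes, against 75.9% of all genes tested. Their counts still differed beyond sampling noise, with a chi-square per degree of freedom of 4.56 between them against 83.1 between controls 1 and 2, and they were kept as separate samples.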
